A study of Mus musculus with 160 samples.

Results

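Transcripts that set a cell's threshold for programmed death were followed in single cells sorted while endothelial cells turned into blood progenitors. The 10 genes were *Bcl2*, *Bcl2l1*, *Mcl1*, *Bax*, *Bak1*, *Bcl2l11*, *Bbc3*, *Pim1*, *Pim2* and *Pim3*. They were chosen by name and make up 10 of the 23420 rows of the expression table. The cells were induced hematogenic endothelial cells (iHECs, 65 cells) and the induced hematopoietic progenitor cells (iHPCs) they gave rise to after 14, 17 and 21 days of induction (21, 18 and 56 cells), or after 3, 6 and 10 days of maturation. All 160 cells descended from mouse pluripotent stem cells of the C57BL/6 strain in which Runx1 and Hoxa9 were expressed, per the study's methods from a doxycycline-inducible *Runx1-p2a-Hoxa9* cassette at the *Rosa26* locus, so no group lacked the transgenes. The iHECs were sorted as CD31+CD41lowCD45-c-kit+CD201high, then matured on OP9-DL1 stromal cells, which display a Notch ligand, with medium containing SCF, Flt3L and IL3. Day-14 and day-17 iHPCs were sorted as CD45+ cells negative for a set of lineage proteins, and day-21 iHPCs as Ter119-CD45+c-kit+CD127+, so day and gate cannot be told apart where iHPCs are set against iHECs or day 21 against day 17, whereas day 14 and day 17 share a gate. The day-21 cells were further read by *Gata2*, a transcription factor of blood stem, progenitor and mast cells, with 34 cells under 31 TPM (Gata2-low) and 22 at or above it (Gata2-high).

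Proteins of the Bcl2 family meet at the outer mitochondrial membrane. Bcl2, Bcl-xL (the main product of *Bcl2l1*) and Mcl1 keep the membrane closed, Bax and Bak1 open it, and the BH3-only proteins Bim (*Bcl2l11*) and Puma (*Bbc3*) tip the balance toward opening. The Pim proteins are serine/threonine kinases with no regulatory subunit, whose amount depends on their synthesis, and cytokine receptors that signal through STAT5 are known to raise transcription of Pim genes and of *Bcl2l1*.

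TPM is a transcript abundance scaled by transcript length and to the same total in every cell, so levels can be set side by side between genes, but sequencing depth is unknown. The median number of genes above 1 TPM per cell ranged from 4926 in iHECs to 8200 at day 14. Genes in common use were also listed at 0 in some cells (*Hprt* in 6 and *Tbp* in 28 of 160), so a value of 0 is given only as listed. The labels name no culture or animal, each group counts as 1 sample, and no difference between groups carries a test. Ranges and intervals below describe cells. Differences are between group means of log2(TPM + 1), and from each was also subtracted the median over 9674 genes, those detected above 1 TPM in over 30 cells. This median was 0.93 at the step from iHEC to day 14, 0.28 at the step to day 17, -0.74 at the step to day 21 and 0.00 between the *Gata2* classes. A gene is called higher or lower where this relative difference reached 1 in either direction, which is a rule of size. All 10 genes passed the filter.

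In all, 3 iHPC libraries had low levels of blood transcripts despite the CD45+ gate, which reads surface protein. Their 4 blood markers (*Ptprc*, which codes for CD45, *Coro1a*, *Sfpi1* and *Tyrobp*) summed to under 100 TPM, whereas the other 92 iHPC libraries had at least 909 TPM. The pair at day 14 had *Ptprc* listed at 0, sums of 34.2 and 60.1 TPM, and 698 and 972 TPM of *Pou5f1*, the pluripotency factor Oct4. Their 8 pluripotency genes summed to 5663 and 8693 TPM, against at most 701 TPM in any other iHPC and 50 TPM or less in iHECs. The library at day 17 had 0.28 TPM of *Ptprc* and 45.2 TPM of the collagen gene *Col1a1*. These 3 libraries were noticed, and the pluripotency genes listed, after the values had been seen, and the relative differences of the 10 genes that involve day 14 or day 17 are given with and without them. The remaining values are over all cells unless stated.

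Of the 10 genes, 5 were called at the step to day 14 (2 higher, 3 lower), 5 at the step to day 17 (2 higher, 3 lower), 3 at the step to day 21 (0 higher, 3 lower) and 2 between the *Gata2* classes (2 higher, 0 lower). The background over the 9674 genes was 27.3% higher and 24.4% lower at the first step, 9.03% and 7.09% at the second, and 10.3% and 13.1% at the third. In Gata2-high relative to Gata2-low day-21 cells it was 13% higher and 10.2% lower. Calls were therefore common among all genes at the first step, and with 10 genes each call shifts the share by 10 percentage points, so the counts are read gene by gene below. As the differences stand, without subtracting the median, 3 of the 10 genes were higher and 0 lower by 1 or more at the first step (48.03% and 11.5% of all genes), 3 and 2 at the second (15.5% and 3.89%), and 0 and 4 at the third (2.33% and 38.5%). Without the 3 libraries the counts were the same in the first 2 comparisons, and 4 genes instead of 3 were lower from day 17 to day 21. In the dot plot of differences, *Pim2* and *Pim3* moved farthest.

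**Figure D1:**
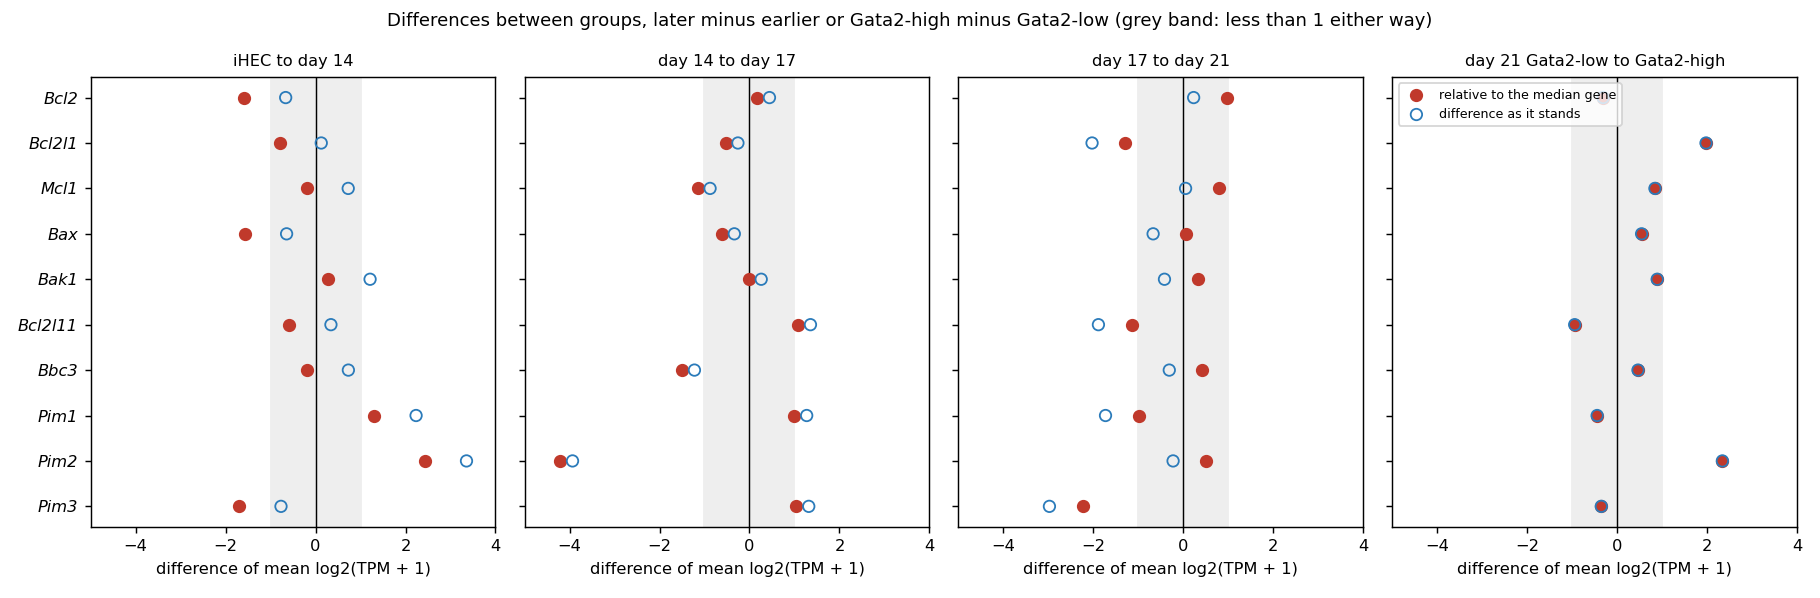
Difference of mean log2(TPM + 1) for the 10 genes in 4 comparisons, later minus earlier or Gata2-high minus Gata2-low, relative to the median gene (filled) and as it stands (open); the grey band holds differences under 1. Pim2 lies at 2.43, -4.21 and 2.34 at the steps to day 14 and day 17 and between the Gata2 classes, and Pim3 at -2.24 at the step to day 21.

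*Pim2* had the widest relative difference of the 10 genes in 3 of the 4 comparisons. Without the 3 libraries the relative difference of *Pim3* (-1.93) was slightly wider than that of *Pim2* (1.92) at the step to day 14. As they stand, these differences were -0.99 for *Pim3* and 2.85 for *Pim2*, so this order depended on the scale. *Pim2* lies on chromosome X (GRCm38, 7878262 to 7883432, plus strand). It ranged from 0 to 1099 TPM in iHECs with a median of 0.40, from 0 to 2225 TPM at day 14 with a median of 81.8, and from 0 to 48.7 TPM at day 17 with a median of 0.997. At day 21 it ranged from 0 to 49.2 TPM in Gata2-low cells with a median of 0, and from 0 to 151 TPM in Gata2-high cells with a median of 14.6. Day-14 cells were the highest group, yet every pair of groups overlapped. The share of cells above 1 TPM of *Pim2* was 46.2% in iHECs, 90.5% at day 14, 50% at day 17, 20.6% in Gata2-low and 68.2% in Gata2-high cells.

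From iHEC to day 14 the mean of *Pim2* was higher by 3.36, or 2.43 relative to the median gene. The pair of day-14 libraries low in blood markers held the highest *Pim2* values of the table, 1552 and 2225 TPM, and without them the day-14 range was 0 to 294 TPM with a median of 78.3. The relative difference was then 1.92, and the mean of 101 TPM was 1.17 times the iHEC mean of 86.6 TPM. Among cells with 5000 to 8000 genes above 1 TPM (31 iHECs and 8 day-14 iHPCs) the relative difference was 0.36. Without the pair, the higher mean log2 level at day 14 thus came with more cells above 1 TPM and with a nearly equal mean TPM, and it was smaller among cells of like complexity.

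From day 14 to day 17 *Pim2* was lower by 3.93, or -4.21 relative to the median gene, and 0.031% of the genes had a lower value. Without the 3 libraries the relative difference was -3.85, and it was -2.24 among the 8 and 7 cells with 5000 to 8000 genes. The mean TPM was 23.9-fold lower over all cells and 9.66-fold lower without the 3 libraries. *Mpo* and *Csf1r*, transcripts of granulocyte and monocyte progenitors that did not pass the filter, had lower medians at day 17 too. The other myeloid markers read were mixed. As they stand, the mean log2 level was lower for *Elane* (-1.62) and higher for *Ly6c2* (1.40), *Ctsg* (0.86) and *Lyz2* (0.20). *Mpo*, a granule enzyme of granulocyte progenitors, went from a median of 158 TPM (279 TPM without the pair) to 0.26 TPM, with 17 of 21 and 4 of 18 cells above 1 TPM. Its mean TPM was 1.07 times the day-14 mean at day 17, where 1 cell reached 5725 TPM. *Csf1r*, the receptor of monocytes, went from a median of 32.5 to 0 TPM, with a mean ratio of 0.51. Within day 14 the Spearman rho of *Pim2* was 0.13 with *Mpo* and -0.52 with *Csf1r* over 21 cells, and 0.50 and -0.36 over the 19 cells with blood markers. The part of such cells in the difference was not tested.

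Within day 21, *Pim2* and *Bcl2l1* were the genes called between the *Gata2* classes. *Pim2* was higher by 2.34 in Gata2-high cells, with 15 of 22 cells above 1 TPM (68.2%, exact Clopper-Pearson 95% interval 45.1 to 86.1) against 7 of 34 (20.6%, 8.70 to 37.9). Such intervals cover counting error only. Its mean TPM was 5.14-fold higher. The class boundary lay in a gap, with 9.18 TPM of *Gata2* in the highest cell below it and 65.98 TPM in the lowest cell above it. Gata2-high cells also carried mast cell transcripts. The 7 mast cell markers summed to 1076 to 82600 TPM (median 36373) in them and to 81.3 to 4647 TPM (median 987) in Gata2-low cells, with *Tpsb2* at 0 in both and *Fcer1a* at 0 in Gata2-low cells. Within Gata2-high cells the rho of *Pim2* with that sum was 0.19 over 22 cells. The part of mast cell content in the *Pim2* difference was not tested.

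*Cish*, a feedback inhibitor and textbook STAT5 target, was also higher in Gata2-high cells, by 3.06. The windows around the start sites of *Pim2* and *Cish* are shown because both transcripts were higher in Gata2-high cells. Capitals mark TTCNNNGAA, the core letters that STAT dimers bind, searched on the printed strand (the motif is its own reverse complement). Each runs from 250 bases before to 50 bases after the start (RefSeq, GRCm38.p6), *Pim2* at chrX:7878056-7878355 and *Cish* at chr9:107296409-107296708, both on the plus strand.
Pim2: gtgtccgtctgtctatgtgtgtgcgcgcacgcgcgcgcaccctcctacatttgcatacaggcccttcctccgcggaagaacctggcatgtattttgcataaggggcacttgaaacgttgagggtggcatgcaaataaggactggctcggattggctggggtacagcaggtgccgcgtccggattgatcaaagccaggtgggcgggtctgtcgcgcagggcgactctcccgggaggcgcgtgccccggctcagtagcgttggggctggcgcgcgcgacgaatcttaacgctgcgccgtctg
Cish: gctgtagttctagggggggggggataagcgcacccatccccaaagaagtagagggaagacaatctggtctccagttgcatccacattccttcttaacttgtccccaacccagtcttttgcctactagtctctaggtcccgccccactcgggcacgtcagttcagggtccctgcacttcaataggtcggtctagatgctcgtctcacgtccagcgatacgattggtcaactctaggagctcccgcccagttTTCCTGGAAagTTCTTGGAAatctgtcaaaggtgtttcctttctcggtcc
The *Cish* window held the letters at 2 places and the *Pim2* window at 0. None of the 16 windows of the 10 genes held them, against 8.30% of all 32851 windows. This says only that these letters are not in these windows.

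The receptor chain *Csf2rb* was set beside *Pim2* in each group. *Csf2rb*, the shared signalling chain of the IL3, IL5 and GM-CSF receptors, had medians of 82.6 TPM in iHECs, 54.6 at day 14, 0.040 at day 17, 0 in Gata2-low and 144 in Gata2-high day-21 cells. At day 21 *Pim2* was above 1 TPM in 17 of 28 cells with *Csf2rb* above 1 TPM and in 5 of 28 without. The rank correlation between them was 0.50 over the 56 day-21 cells, but 0.20 within Gata2-low and 0.26 within Gata2-high cells. It was 0.32 in iHECs, 0.11 at day 17 and -0.51 at day 14, where it was -0.34 without the pair of libraries low in blood markers.

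**Figure D2:**
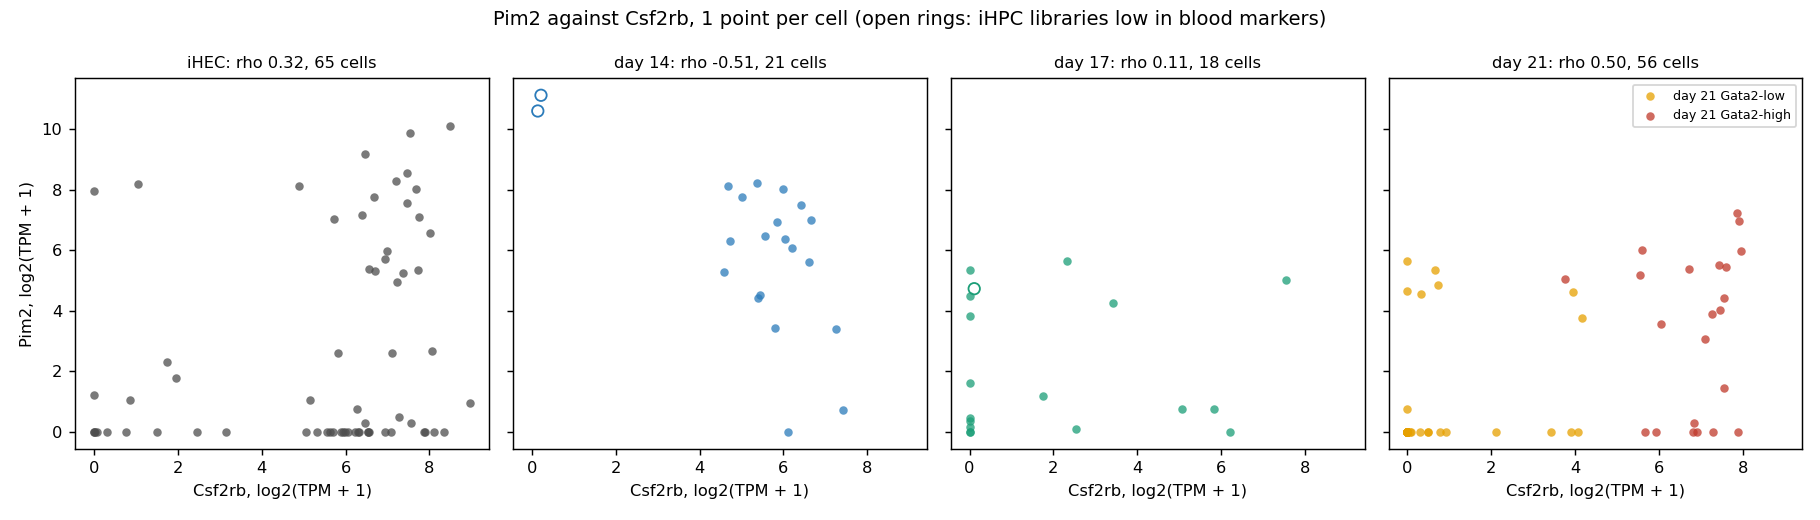
Pim2 against Csf2rb, both as log2(TPM + 1), 1 point per cell, with Spearman rho per group; open rings are iHPC libraries low in blood markers. At day 21 the 22 Gata2-high cells all had Csf2rb above 1 TPM and the 34 Gata2-low cells mostly did not.

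*Pim3*, on chromosome 15 (88862186 to 88865726, plus strand), took a course unlike that of *Pim2*. It ranged from 0 to 421 TPM in iHECs with a median of 67.2, from 0 to 124 at day 14 with a median of 18.2, and from 0.14 to 109 at day 17 with a median of 45.4. At day 21 medians were 0.33 TPM in Gata2-low cells (highest 125) and 0.39 TPM in Gata2-high cells (highest 55.2). *Pim3* was thus high in iHECs and at day 17, and most day-21 cells lay under 1 TPM, although the ranges overlapped. The relative differences were -1.70 at the step to day 14, 1.04 at the step to day 17 and -2.24 at the step to day 21. Without the 3 libraries they were -1.93, 1.28 and -2.25. As they stand, the differences were -0.77, 1.32 and -2.98, the first of them under 1 (-0.99 without the 3 libraries). Over all cells the relative difference at the step to day 21 was -2.10 against Gata2-low and -2.47 against Gata2-high cells alone. The lower level thus held in either class.

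*Pim1* (chromosome 17, 29490753 to 29496112, plus strand) was scarce in iHECs. Of 65 iHECs 7 were above 1 TPM (10.8%), with a median of 0 and a highest value of 54.5 TPM. Medians were 5.39 TPM at day 14 (0 to 40.1), 18.97 at day 17 (0 to 42.997), 3.37 in Gata2-low (0 to 52.6) and 1.37 in Gata2-high cells (0 to 52.6). The iHECs were low and day 17 high, with overlap throughout. The relative differences were 1.31 at the step to day 14, 0.996 at the step to day 17, just under the rule, and -0.99 at the step to day 21. Without the 3 libraries, each of which had *Pim1* at 0, they were 1.56, 0.965 and -1.22, the last within the rule. The antisense gene *Gm26885* overlaps *Pim1* and no source used here states whether the reads keep strand.

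The gene with the highest TPM among the 3 kinases therefore differed by group. *Pim3* led in 36 of the 65 iHECs, *Pim2* in 16 of the 21 iHPCs at day 14 (76.2%, and 73.7% of the 19 with blood markers) and *Pim3* in 15 of the 18 at day 17. At day 21 the leader was *Pim3* in 17, *Pim1* in 15 and *Pim2* in 14 of 56 cells, and no Pim gene was above 1 TPM in 10. Among Gata2-high cells *Pim2* led in 10 of 22, and among Gata2-low cells in 4 of 34. All 3 kinases were above 1 TPM together in 61.9% of cells at day 14 and 38.9% at day 17, against 6.15% of iHECs and 12.5% at day 21.

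**Figure D3:**
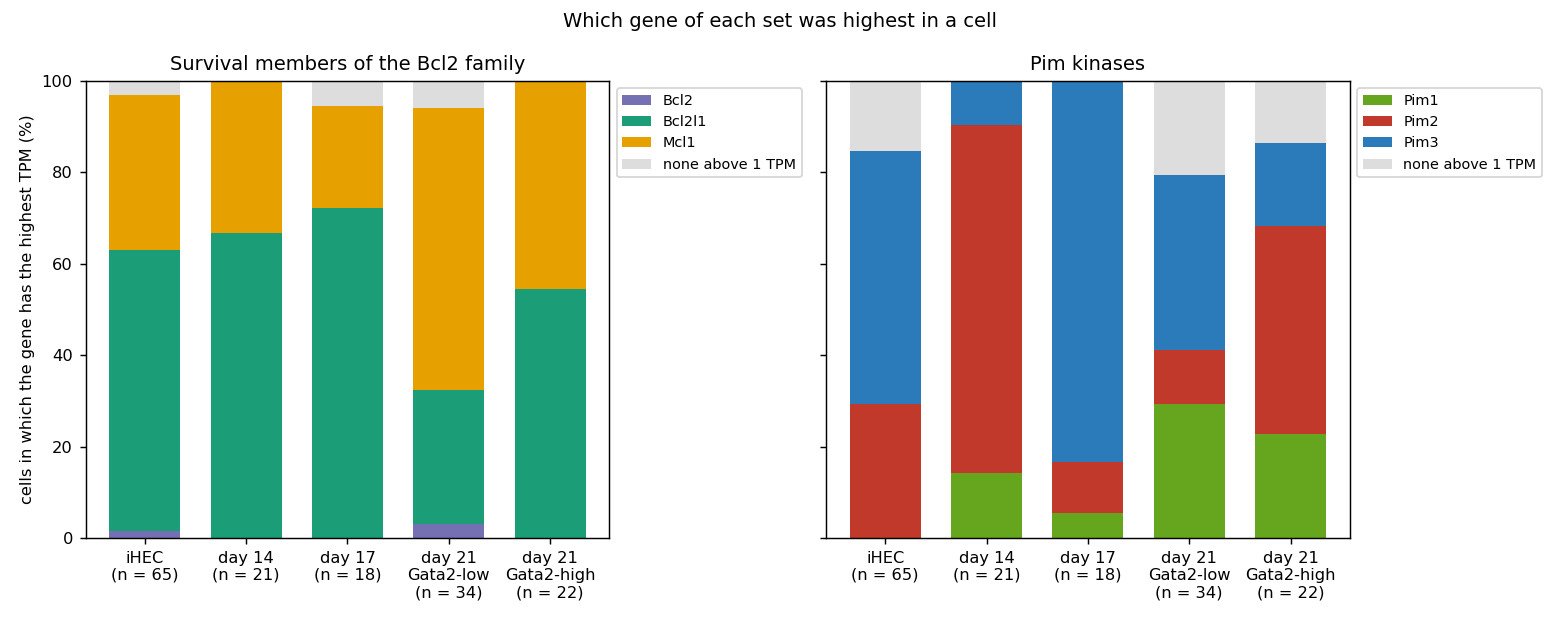
Share of cells (%) in which each gene had the highest TPM among the 3 survival genes of the Bcl2 family (left) or the 3 Pim kinases (right), by group; grey is the share with none above 1 TPM. Pim2 leads at day 14 (76.2%), Pim3 at day 17 (83.3%), and Mcl1 replaces Bcl2l1 as the commonest leader in Gata2-low day-21 cells (61.8%).

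Among the survival genes, *Bcl2l1* (chromosome 2, 152780668 to 152831728, minus strand) was the highest in most cells up to day 17. It ranged from 0 to 608 TPM in iHECs with a median of 70.3, from 0 to 128 at day 14 with a median of 56.1, and from 0.29 to 104 at day 17 with a median of 43.3. At day 21 it ranged from 0 to 121 TPM in Gata2-low cells with a median of 1.07, and from 0 to 135 TPM in Gata2-high cells with a median of 28.1. The Gata2-low cells had the lowest median, with ranges overlapping between all groups. Between the classes the difference of 1.97 was under the SD between cells of Gata2-low (2.48) and Gata2-high cells (2.44). Mean TPM was 106 in iHECs, 52.9 at day 14, 44.1 at day 17, 16.3 in Gata2-low and 39.5 in Gata2-high cells. The share above 1 TPM was 17 of 34 in Gata2-low cells (50%, 32.4 to 67.6) and 17 of 22 in Gata2-high cells (77.3%, 54.6 to 92.2).

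From day 17 to day 21 *Bcl2l1* was lower by 2.03, or -1.29 relative to the median gene (-1.30 without the 3 libraries). Against Gata2-low cells alone the relative difference was -2.06 and against Gata2-high cells -0.10, so the call rested on the Gata2-low cells. Between the classes it was higher in Gata2-high cells by 1.97, and the mean TPM was 2.42-fold higher. With a pseudocount of 10 that difference was 0.99. The rho of *Bcl2l1* with the summed mast cell markers was -0.36 within Gata2-high and 0.00 within Gata2-low cells, and the part of mast cell content was not tested. From iHEC to day 14 its sign depended on the scale, 0.13 as it stands and -0.80 relative to the median gene (-0.81 without the 3 libraries).

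*Mcl1*, which codes for a protein of short life (chromosome 3, 95658788 to 95663176, plus strand), had similar medians in all groups. They were 28.4 TPM in iHECs (0 to 145), 27.7 at day 14 (8.29 to 51.7), 23.1 at day 17 (0 to 64.1), 17.9 in Gata2-low (0 to 55.7) and 26.9 in Gata2-high cells (0.82 to 81.1). Every day-14 cell was above 8 TPM, and the other groups held cells at or near 0. The relative difference from day 14 to day 17 was -1.15 (-1.17 without the 3 libraries) but -0.88 as it stands, and 5 of 9 other settings kept the call. The mean TPM was 1.19-fold lower, and 2 of 18 day-17 cells against 0 of 21 day-14 cells lay at or under 1 TPM. The sign from iHEC to day 14 flipped with the scale, 0.73 as it stands and -0.20 relative to the median gene (-0.23 without the 3 libraries). *Mcl1* had the highest TPM of the 3 in 33.8% of iHECs, 33.3% of cells at day 14, 22.2% at day 17 and 55.4% at day 21 (61.8% of Gata2-low and 45.5% of Gata2-high cells).

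*Bcl2* itself (chromosome 1, 106538178 to 106714274, minus strand) was scarce. Its median was 0 TPM in every group, and its highest values were 85.6 TPM in iHECs, 15.8 at day 14, 14.8 at day 17, 25.4 in Gata2-low and 17.96 in Gata2-high cells. In that order 14 of 65, 2 of 21, 5 of 18, 11 of 34 and 6 of 22 cells were above 1 TPM. It was the highest of the 3 in 1 iHEC and 1 day-21 cell. The relative difference from iHEC to day 14 was -1.59 (-1.57 without the 3 libraries) but -0.66 as it stands, and 5 of 9 other settings kept the call. *Bcl2l1* and *Mcl1* were above 1 TPM together in 63.1% of iHECs, 95.2% of cells at day 14, 88.9% at day 17, 44.1% of Gata2-low and 68.2% of Gata2-high cells, and neither was in 2, 0, 1, 2 and 0 cells.

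**Figure D4:**
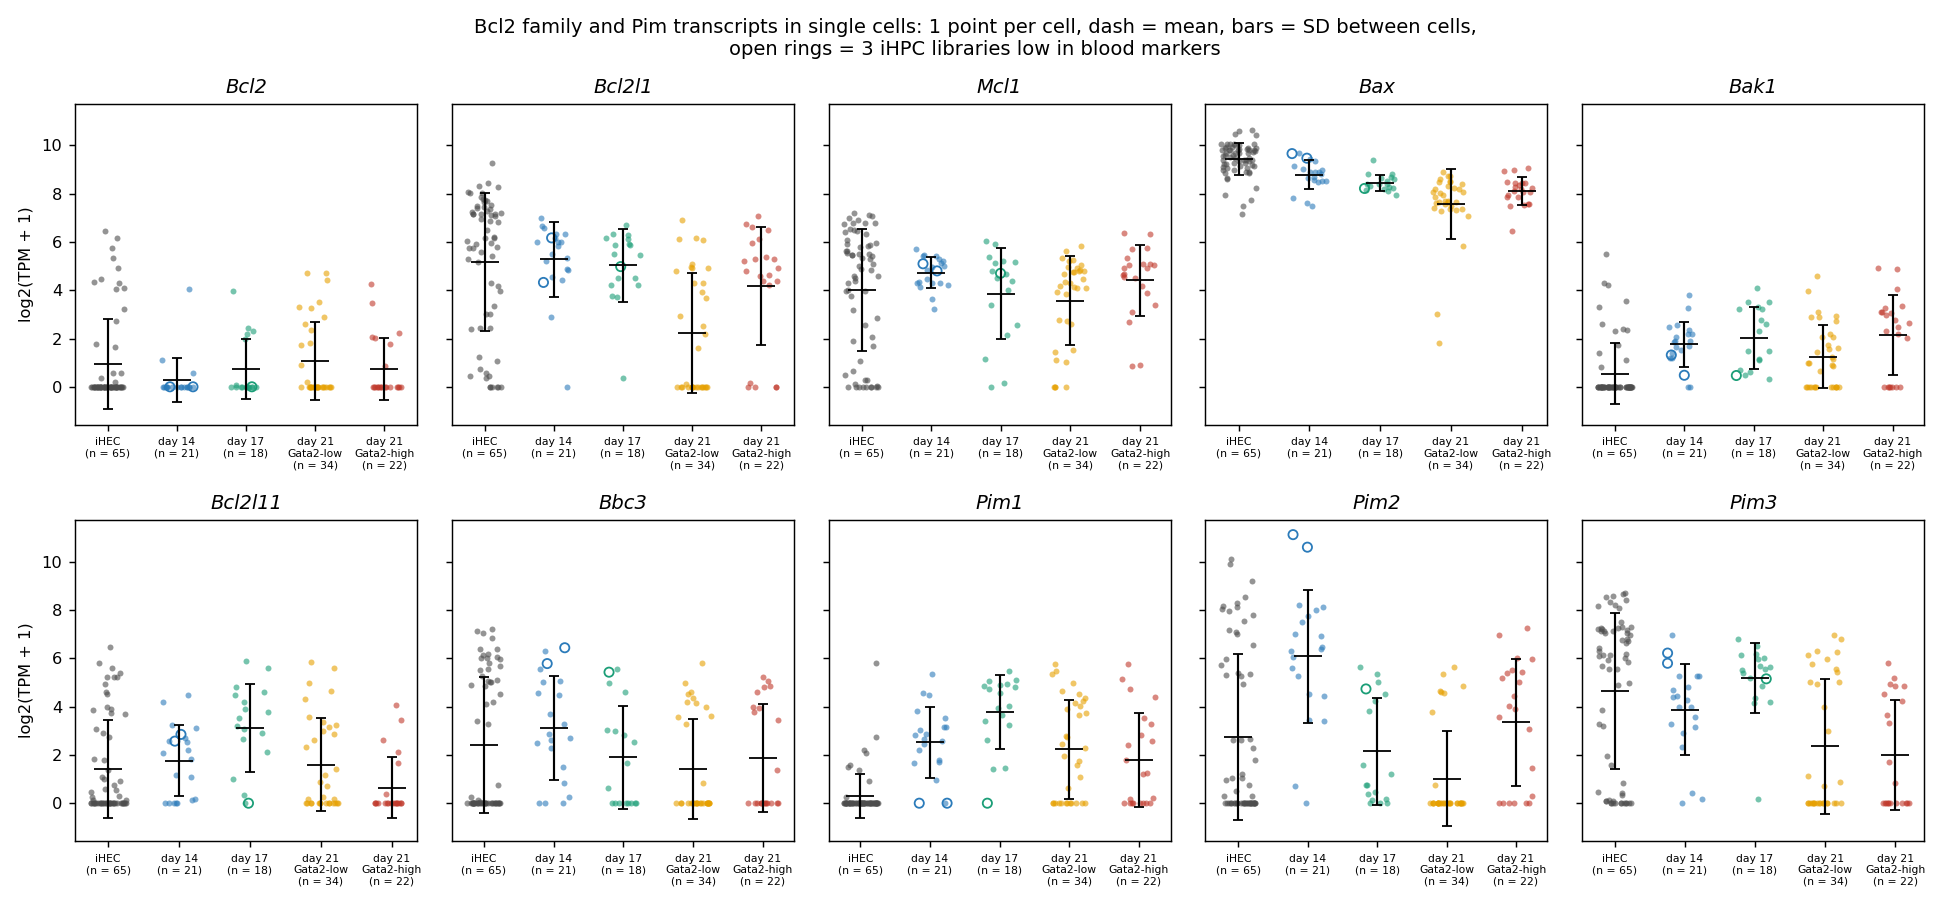
Levels of the 10 genes as log2(TPM + 1) in 65 iHECs, 21 day-14, 18 day-17, 34 Gata2-low and 22 Gata2-high day-21 cells; 1 point per cell, the dash is the mean and bars the SD between cells, and open rings are the 3 libraries low in blood markers. Bax lies high in all groups, Bcl2 near 0 in all, and the 2 highest Pim2 points at day 14 are rings.

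The executioner gene *Bax* (chromosome 7, 45461697 to 45466898, minus strand) was the highest of the 10 genes by median in every group and was above 1 TPM in all 160 cells. Its medians were 759 TPM in iHECs (143 to 1567), 474 at day 14 (177 to 813), 334 at day 17 (245 to 675), 220 in Gata2-low (2.47 to 472) and 283 in Gata2-high cells (86.7 to 532). The level was lower at each later day, with neighbouring groups overlapping. From iHEC to day 14 it was lower by 0.64, or -1.57 relative to the median gene (-1.66 without the 3 libraries), and the mean TPM was 1.59-fold lower. Of 9 other settings, 5 kept this call. From day 17 to day 21 the difference was -0.67 as it stands and 0.06 relative to the median gene (0.04 without the 3 libraries), so its direction depended on the scale. *Bax* shares its strand and part of its span with *Gm45808*, and reads of these genes may have been split between them.

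*Bak1* (chromosome 17, 27019810 to 27029009, minus strand) was far lower than its partner. Its medians were 0 TPM in iHECs (highest 44.3), 2.59 at day 14 (12.7), 2.87 at day 17 (16.2), 0.96 in Gata2-low (22.7) and 4.92 in Gata2-high cells (29.1). Cells above 1 TPM numbered 12 of 65 in iHECs and 18 of 21 at day 14, but relative to the median gene the difference was 0.29 (0.37 without the 3 libraries). No relative difference of *Bak1* reached the rule, the largest being 0.89 between the *Gata2* classes. As it stands, the difference from iHEC to day 14 was 1.21, so whether it passed 1 depended on the scale. *Ggnbp1* overlaps it on the other strand.

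*Bcl2l11* (chromosome 2, 128126038 to 128162547, plus strand) was highest at day 17. It ranged from 0 to 87.3 TPM in iHECs with a median of 0, from 0 to 21.4 at day 14 with a median of 3.16, and from 0 to 58.8 at day 17 with a median of 9.31. Medians at day 21 were 0.41 TPM in Gata2-low (highest 56.4) and 0 TPM in Gata2-high cells (highest 15.5). Day 17 stood above its neighbours by median, with overlap. The relative differences were 1.08 from day 14 to day 17 (1.37 without the 3 libraries) and -1.15 from day 17 to day 21 (-1.34). Against Gata2-high cells alone the latter was -1.74, and against Gata2-low cells -0.77. Between the classes it was -0.95, just short of the rule, with 5 of 22 Gata2-high and 15 of 34 Gata2-low cells above 1 TPM.

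*Bbc3*, a gene that p53 induces (chromosome 7, 16308393 to 16318205, plus strand), was highest at day 14 by median. Its medians were 0 TPM in iHECs (highest 148), 6.24 at day 14 (85.6), 1.35 at day 17 (46.7) and 0 in both day-21 classes (54.6 in Gata2-low, 36.05 in Gata2-high). Cells above 1 TPM numbered 28 of 65, 16 of 21, 9 of 18, 11 of 34 and 10 of 22. The relative difference from day 14 to day 17 was -1.50, and -1.38 without the 3 libraries, of which the pair at day 14 had 53.99 and 85.6 TPM. The day-17 median was 0.55 TPM without them. All 4 pro-death genes were above 1 TPM together in 9.23% of iHECs, 52.4% of cells at day 14, 38.9% at day 17 and 8.93% at day 21.

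Averaged over each role, the survival genes, the pro-death genes and the Pim kinases differed by less than 1 relative to the median gene in each comparison. The survival genes gave -0.86, -0.51, 0.15 and 0.83 in the order of the comparisons, the pro-death genes -0.52, -0.26, -0.09 and 0.23, and the Pim kinases 0.68, -0.72, -0.91 and 0.51. As they stand, the Pim kinases passed 1 at the steps to day 14 (1.61) and day 21 (-1.65), and the remaining averages stayed under 1. At the step to day 14 the survival (0.06) and pro-death averages (0.41) were then positive, so their sign depended on the scale. The survival average at the step to day 21 was -0.58 as it stands. At the steps to day 14 and day 17 the Pim average covered relative differences of *Pim2* and *Pim3* of opposite sign.

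Within a group the 10 genes were only loosely related. Spearman rho over the 45 pairs ran from -0.31 to 0.39 in iHECs, from -0.63 to 0.66 at day 14, from -0.50 to 0.52 at day 17 and from -0.20 to 0.36 at day 21. The widest were those of day 14, a group of 21 cells, where *Pim2* went against *Pim1* (-0.63) and *Bak1* (-0.61) and with *Bbc3* (0.52). Without the pair of libraries low in blood markers these were -0.50, -0.53 and 0.37 over 19 cells. *Bax* and *Bbc3* had 0.66, and 0.56 without the pair. These pairs were picked as the widest of 45 and are given as a description.

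**Figure D5:**
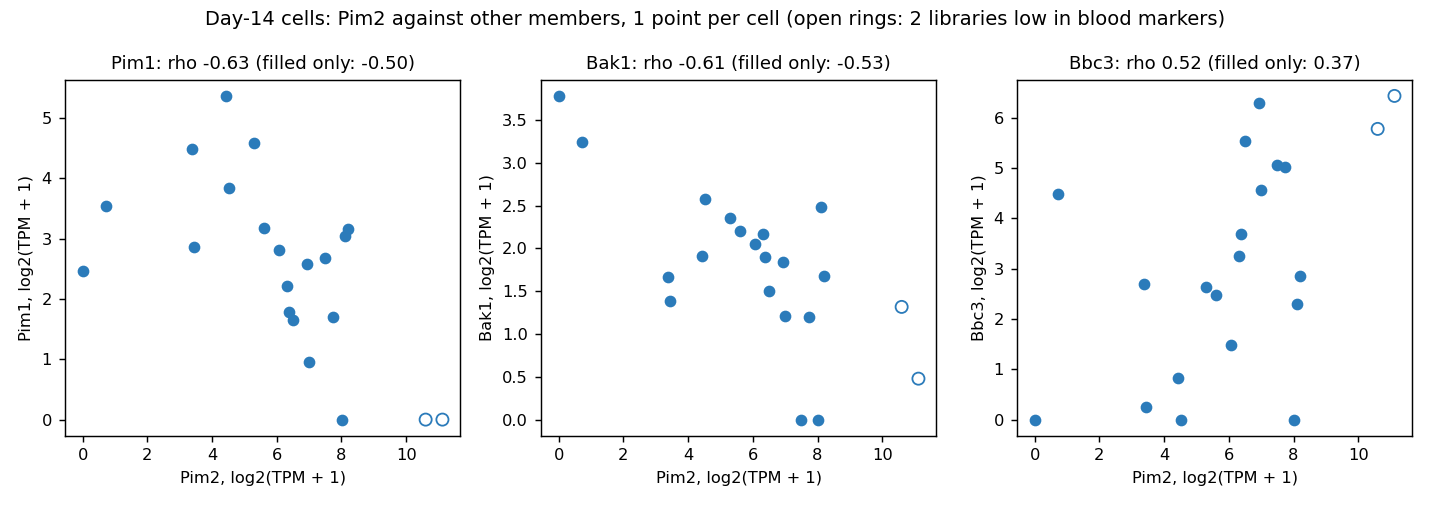
Day-14 cells, with log2(TPM + 1) of Pim1, Bak1 and Bbc3 against that of Pim2; open rings are the 2 libraries low in blood markers. The rank correlation is -0.63, -0.61 and 0.52 over 21 cells, and -0.50, -0.53 and 0.37 over the 19 filled points.

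The gene whose levels were most like those of each member was sought among those that passed the filter. Over all 160 cells it was *Sparc* for *Bax* (rho 0.75), *Nckap1l* for *Pim1* (0.67), *Fmnl1* for *Bak1* (0.59), *Nid2* for *Pim3* (0.56) and *Pkm* for *Bcl2l1* (0.51). Values were lower for *Pim2* (*Dctd*, 0.48), *Bcl2l11* (*Pnpla2*, 0.43), *Mcl1* (*Zfand5*, 0.41), *Bbc3* (*Cdc42bpb*, 0.40) and *Bcl2* (*Ralgapb*, 0.34). Over the 56 day-21 cells it was *Fastk* for *Bak1* (0.63), *Ndrg1* for *Bbc3* (0.61), *Mcm2* for *Bcl2l11* (0.60), *Furin* for *Pim2* (0.60) and *Gnas* for *Bcl2l1* (0.60). The others were *Dctn2* for *Mcl1* (0.57), *Srp54a* for *Pim3* (0.57), *Ylpm1* for *Pim1* (0.56), *Gm5918* for *Bcl2* (0.53) and *Ngfrap1* for *Bax* (0.53). Points share library complexity and group, and the values describe these cells only.

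Other genes of the pathway were read from lists, with calls relative to the median gene, to be set beside the background shares of all genes given above. Among 5 further survival genes of the family 0 passed the filter, and *Bcl2a1a*, *Bcl2a1b* and *Bcl2a1d*, near-identical copies whose reads may be split, were listed at 0 in all 65 iHECs and above 1 TPM in 8, 8 and 5 of the 21 cells at day 14. Of a list of 7, made up of further BH3-only genes and of *Bok*, which is not one of them, 4 passed the filter. From iHEC to day 14, 2 were higher and 1 lower. *Bid*, whose protein links death receptors to mitochondria, was higher by 2.87 relative to the median gene, with medians of 4.07 and 188 TPM. *Pmaip1*, which codes for Noxa, the partner of Mcl1, was higher by 1.67, and *Bok*, a relative of Bax, lower (-3.58). *Pmaip1* was lower from day 17 to day 21 (-2.51), the single call of the list there, with medians of 94.5 TPM at day 17 and 22.6 and 18.5 TPM in the day-21 classes.

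Downstream of mitochondria, all 12 genes of the apoptosome, caspases and their inhibitors passed the filter, with 2 higher and 4 lower from iHEC to day 14 (6 and 1 as they stand). *Htra2*, which relieves caspase inhibition, was higher (2.34), and *Casp6* (-2.01), the cytochrome c adaptor *Apaf1* (-1.84) and the caspase inhibitor *Xiap* (-1.63) were lower. In Gata2-high relative to Gata2-low cells *Casp6* (-1.88), an executioner caspase, was lower. From day 14 to day 17, 2 were higher and 0 lower, and from day 17 to day 21, 1 was higher and 1 lower (0 and 6 as they stand).

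Of 10 genes of p53 and its targets, 2 were higher and 7 lower from iHEC to day 14, and the list median was -1.44, against 27.3% higher and 24.4% lower among all genes. As they stand, 3 were higher and 3 lower, with a median of -0.52. *Phlda3* (-5.41), *Eda2r* (-3.47) and the cell cycle inhibitor *Cdkn1a* (-3.28) were lower, and *Sesn2*, which also answers to amino acid stress, was higher (2.77). *Cdkn1a* had medians of 994 TPM in iHECs and 168 TPM at day 14. At later comparisons 0 or 1 of the 10 was called in a direction, but 0 were higher and 5 lower as they stand from day 17 to day 21. *Bbc3*, from the same textbook set, was not called at the step to day 14 (-0.20, and -0.52 without the 3 libraries). Its sign there depended on the scale, with 0.73 as it stands (0.42 without the 3 libraries).

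Upstream, 11 of 12 genes of JAK-STAT signalling and its feedback passed the filter. From day 14 to day 17, *Tyk2* (1.83), *Stat5a* (1.82) and *Stat3* (1.197) were higher and *Cish* lower (-1.04), which is 3 higher and 1 lower (7 and 0 as they stand), against 9.03% and 7.09% of all genes. Between the *Gata2* classes, *Cish* (3.06), *Socs1* (1.61) and *Tyk2* (1.003) were higher in Gata2-high cells and *Stat3* lower (-2.03). Counts were 1 higher and 2 lower at the step to day 14 (5 and 1 as they stand) and 2 and 2 at the step to day 21 (0 and 5 as they stand), so at both steps they depended on the scale. Of 13 survival receptors 11 passed the filter. From day 14 to day 17 *Il7r* was higher (4.28), *Csf2rb* lower (-3.65) and *Kit* higher (1.34). In Gata2-high cells *Csf2rb* (6.07) and *Csf2rb2* (3.59) were higher and *Flt3* (-4.67) and *Il7r* (-3.76) lower, with 3 higher and 2 lower in all. *Csf2rb* and *Csf2rb2* are near-identical copies whose reads may be split.

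Of the 7 genes of AKT and FOXO signalling 4 passed the filter, with *Akt1* (3.35) and *Akt2* (2.93) higher and *Foxo1* (-2.05) lower from iHEC to day 14, and *Akt1* lower (-1.15) from day 17 to day 21 and higher (1.51) in Gata2-high cells. Of 4 known Pim substrates, *Cdkn1b* (-3.98) and *Cdkn1a* (-3.28) were lower from iHEC to day 14, and *Eif4b* was lower (-1.10) from day 17 to day 21. Relative to the median gene 0 were higher in any comparison, but as it stands *Cdkn1b* was higher (1.04) from day 14 to day 17. Of 6 proliferation genes 4 were lower in Gata2-high cells, against 10.2% of all genes (*Mcm5* -1.94, *Ccnb1* -1.57, *Cdk1* -1.46 and *Top2a* -1.004). From iHEC to day 14, 5 of 6 were higher, against 27.3% of all genes, led by *Ccnb1* (5.44) and *Mcm5* (5.31). Immediate early genes, which also answer to handling of cells, were lower at day 14 than in iHECs in 4 of 5 cases, against 24.4% of all genes (*Jun* -6.08, *Egr1* -5.95, *Atf3* -4.25), and *Ier3* (3.80) and *Fos* (2.11) were higher in Gata2-high cells. The part of these lists in the members' differences was not tested.

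The labels were checked against markers. *Il7r*, which codes for CD127 of the day-21 gate, was above 1 TPM in 33 of 34 Gata2-low but 8 of 22 Gata2-high cells. A transcript level does not show whether the surface protein was present. All 6 endothelial markers were lower at day 14 than in iHECs and all 4 blood markers higher, with *Cdh5* at 0 in every iHPC. The 5 T lymphoid markers summed to a median of 201 TPM in Gata2-low and 0.53 TPM in Gata2-high cells. The 6 myeloid markers summed to medians of 343 TPM at day 14, 16.5 at day 17, 4.58 in Gata2-low and 1655 in Gata2-high cells. *Mpo*, *Elane* and *Lyz2* were at 0 in both day-21 classes, and *Csf1r* was at 0 in Gata2-high cells. In Gata2-high cells the sum was nearly all *Ctsg*, a granule protease also known from mast cells, with a median of 1655 TPM against 1.14 TPM in Gata2-low cells. The 5 stromal markers, which would show feeder cells, summed to a median of 0 TPM in every group and to at most 48.5 TPM in a cell.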

How the data were processed

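Polyadenylated RNA of 160 sorted single cells was profiled. Per the labels and the methods, the authors amplified cDNA with the Discover-sc WTA Kit V2, used the TruePrep DNA Library Prep Kit V2 for libraries and aligned reads to mm10. The submitters' processing notes name bcl2fastq, HISAT2 2.1.0, SAMtools 0.1.19 and StringTie 1.3.4. The deposited values are TPM, 1 column per cell, and sum to between 988686 and 999108 in a cell. They hold neither counts nor depth. Strandedness and molecular identifiers are not given in the sources used here. All columns were matched by name, 0 were unused and 0 were duplicates. No doublet caller was run on these sorted single cells.

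TPM was analysed as log2(TPM + 1) with Python 3.11.15, NumPy 2.4.6, pandas 2.3.3 and SciPy 1.17.1. A gene was detected above 1 TPM, and genes detected in more than 30 cells (9674) gave the background. No test was run, since a group is 1 sample. The 10 members and the 16 other lists of pathway and marker genes were chosen with earlier results of these data known. From each list, up to 4 genes with the largest relative difference in a comparison were named, and the rule gave 3 genes most alike by Spearman rho for each member, of which the text gives the first. Pou5f1, Col1a1 and the pluripotency genes were named after their values were seen. The 8 pluripotency genes were Pou5f1, Nanog, Sox2, Zfp42, Dppa5a, Tdgf1, Utf1 and L1td1. Gene positions are from GRCm38 and promoter windows from RefSeq. The calculation was checked on simulated data. Alternatives were other pseudocounts, scalings, filters, cells of like complexity and Gata2 thresholds. Leaving out libraries and splitting day 21 in the comparison with day 17 were added after the data had been seen. The values of a single listed gene are not reported here.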

Additional observations from a re-analysis of the deposited data

How the results depend on the processing

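The averages over the 3 roles moved by less than 1 SD between cells under every alternative (120 of 120 values), as did 393 of 400 values of single genes, and 0 called differences changed sign. This limit is wide for the roles, whose SD within a group was 0.68 to 1.60 against relative differences of at most 0.91. The survival average at the step to day 14 stayed within it at -0.86 relative to the median gene and 0.06 as it stands. It therefore does not show that the role averages were stable. The number of genes past the rule was less stable. From iHEC to day 14 it was 5, but 2 with a pseudocount of 10 and 3 without subtracting the median difference or without the filter. From day 14 to day 17 it was 5, but 1 with a pseudocount of 10 and 3 with ratios of mean TPM. From day 17 to day 21 it was 3, but 6 with a pseudocount of 0.1, 1 with a pseudocount of 10, 7 among cells with 5000 to 8000 genes and 5 against Gata2-high cells alone. Between the Gata2 classes it was 2, but 5 with a pseudocount of 0.1, 1 with a pseudocount of 10, 4 with ratios of mean TPM and 4 with a Gata2 threshold of 100 TPM. In each case the cause was not tested. The lower Pim2 at day 17, the lower Pim3 at day 21 and the higher Pim2 in Gata2-high cells passed the rule under all 9, 11 and 11 alternatives run for them. Of the 30 genes most alike, Pearson's r gave 12 of the same genes over 160 cells and 11 over day-21 cells. Depth is unknown in TPM, so a gene listed at 0 may lie under the detection of that library. No paired analysis was possible because the cells carry only running numbers and no test was run.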
